A study of Homo sapiens with 6 samples.

Results

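Cells turn fructose 6-phosphate and glutamine into UDP-GlcNAc through the hexosamine pathway, and use this sugar nucleotide both to tag nuclear and cytosolic proteins with O-GlcNAc and to begin the glycan that is later attached to asparagine residues. That N-glycan is built on the lipid dolichol phosphate, first on the cytosolic face of the endoplasmic reticulum (ER) and then in its lumen, and the oligosaccharyltransferase complex moves it onto nascent proteins. Its outer glucose residues are trimmed and put back by enzymes that monitor folding. Because glucose provides the sugars and glutamine the amide nitrogen, both nutrients removed in this study feed the first step.

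The genes described here are 43 named genes of this route among the 59609 gene names in the tables. They were chosen by symbol for their known function and fall into 8 roles: 5 genes of UDP-GlcNAc synthesis, 3 of O-GlcNAc cycling and salvage, 6 that make mannose and glucose donors, 6 of dolichol phosphate and its sugars, 6 of assembly on the cytosolic face, 6 of assembly in the ER lumen, 8 subunits of oligosaccharyltransferase and 3 of trimming and the folding check. All 43 were found in the tables, and all 43 had at least 1 FPKM (fragments per kilobase of transcript, scaled to the mapped fragments of the library) in at least 1 library, so none was lost to the filter on low values.

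RNA was sequenced from 95D cells, an established human lung cancer line of wild-type genotype. After 24 h in complete medium, cells spent 48 h in DMEM lacking glutamine, in DMEM lacking glucose, or in control DMEM, each with 10% serum. Dialyzed serum is given for both deprived media and not for the control medium, so against control the loss of the nutrient and a change of serum cannot be told apart. The direct comparison of both deprivations has dialyzed serum on both sides. There was 1 usable library of glutamine deprivation, 2 of glucose deprivation and 2 of control medium. For the single glutamine-deprived library the spread had to be borrowed from the other groups. Whether replicates were separate cultures is not stated, so the spread behind each p-value is that between libraries and may be purely technical.

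Inferred depth was 34520000 reads for glutamine deprivation, 36840000 and 35140000 reads for glucose deprivation, and 35470000 and 48920000 reads for control. A transcript of 2 kb at 1 FPKM then rests on 69.0 to 97.8 reads. Across the 16598 genes tested, log2 levels correlated at 0.985 between the glucose-deprived libraries, at 0.991 between the controls and at 0.954 to 0.961 between libraries of different media, where the points share genes and their lengths. Of 5 epithelial markers KRT8 and KRT18 exceeded 1 FPKM, KRT19 was listed at 0 in each library and EPCAM and CDH1 reached at most 0.139 and 0.249 FPKM. The mesenchymal markers VIM, CDH2 and FN1 were all above 1 FPKM. The lung markers SFTPB and SCGB1A1 were listed at 0 in each library and NKX2-1 reached 1.17 FPKM at most, so the label of a lung line has little support from lung-specific genes. The leukocyte, endothelial and erythroid markers each stayed under 1 FPKM, and COL1A1, the only fibroblast marker above it, reached 1.83 FPKM in the glutamine-deprived library.

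Removing glutamine was accompanied by lower RNA for most of these genes under the scaling used. With glucose removed, calls went in both directions, as they did over all genes, and differed between roles of few genes each. A gene is called higher or lower where its Benjamini-Hochberg adjusted p from limma, over all 16598 genes, was under 0.05. In glutamine deprivation 4 of the 43 genes rose against control and 26 fell, beside 51.1% of all genes called in either direction, 24.7% higher and 26.5% lower. In glucose deprivation 14 rose and 17 fell against control, beside 54.9% of all genes called, 26.5% higher and 28.3% lower. Scaling the libraries to their totals gave 14 higher and 12 lower in glutamine deprivation and 23 higher and 11 lower in glucose deprivation. The total, here and below, is the summed FPKM of protein-coding genes outside the mitochondrial genome. This scaling also shifted the median of all genes. Compared directly, 5 genes were higher and 24 lower in glutamine than in glucose deprivation, beside 44.7% of all genes called, 22.5% higher and 22.2% lower. These shares over all genes also stand beside the counts of each role and list below.

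The median log2 fold change of the 43 genes was -0.33 in glutamine deprivation and -0.01 in glucose deprivation, where the medians over all genes tested were 0.04 and 0.02. In the direct comparison the median was -0.27, against 0.01 over all genes. With a trend over GC content and length removed, the medians of the 43 genes moved closer to those of all genes. They were then -0.16 without glutamine, 0.02 without glucose and -0.18 in the direct comparison, beside 0.03, 0.02 and 0.02 over all genes. Both deprivations share the control libraries, so their calls are not independent of each other. Summed over the 43 genes, the level was 919 FPKM without glutamine, 1108 and 1134 FPKM without glucose, and 1177 and 1169 FPKM in control medium. In RNA from bulk cultures, fewer cells that express a gene and less of its RNA in each cell cannot be told apart.

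**Figure D1:**
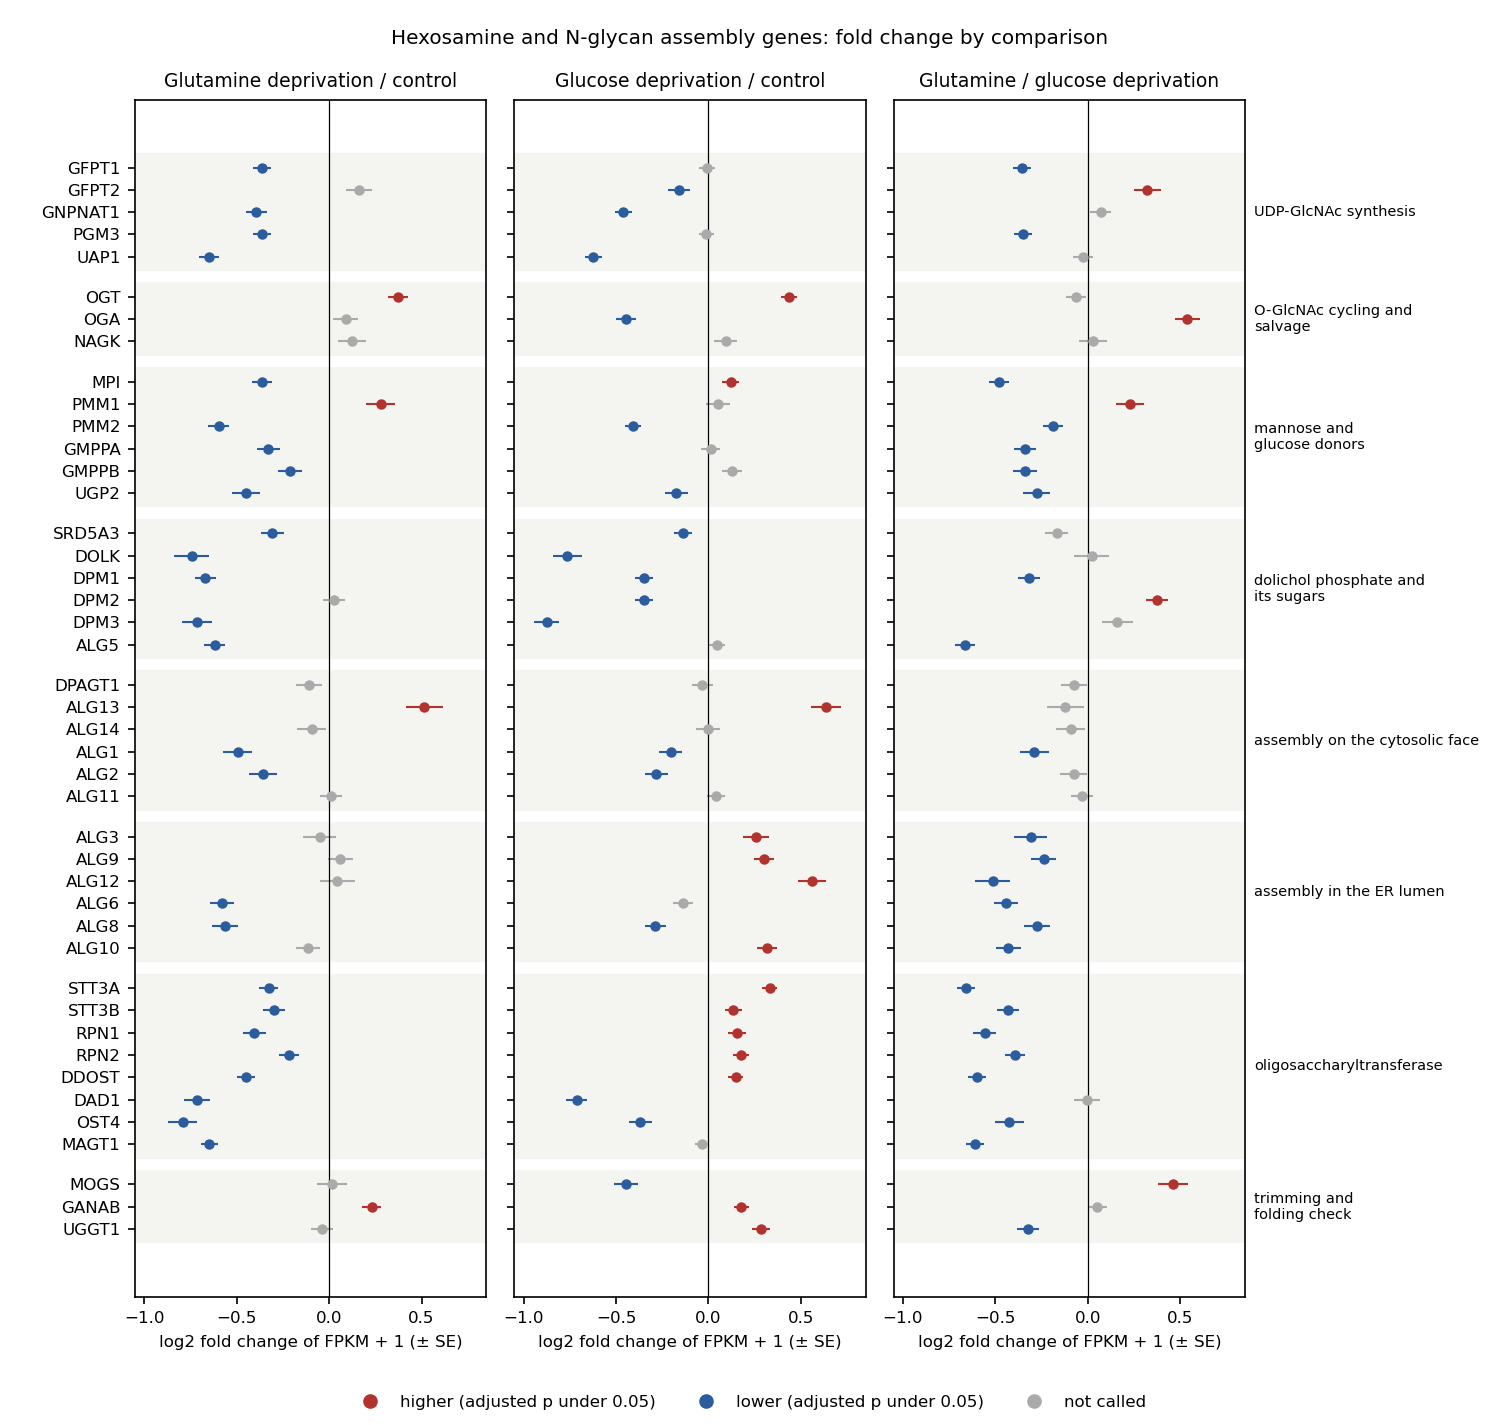
Log2 fold change (horizontal axis) of each of the 43 genes (rows, grouped by role) in glutamine deprivation over control, glucose deprivation over control and glutamine over glucose deprivation. Points are estimates from log2(FPKM + 1), bars are standard errors, and colours mark genes called higher or lower at an adjusted p under 0.05; in the glutamine panel 26 genes are called lower and 4 higher, while the glucose panel has 17 lower and 14 higher.

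In UDP-GlcNAc synthesis UAP1 and GNPNAT1 fell in both media, while GFPT1 and PGM3 fell without glutamine and GFPT2 marginally without glucose. In glutamine deprivation 4 of the 5 genes fell and none rose (median log2 fold change -0.36), and in glucose deprivation 3 of the 5 fell and none rose (median -0.16), whereas scaling to the total gave 1 higher and 1 lower without glutamine and 2 higher and 2 lower without glucose. GFPT1 (ENSG00000198380.12, chr2:69319769-69387254, minus strand; here and below hg38 as annotated in GENCODE release 29) encodes the amidotransferase that passes the amide nitrogen of glutamine to fructose 6-phosphate and sets the pace of the pathway. Its level was 7.89 FPKM without glutamine, 10.4 and 10.3 FPKM without glucose, and 10.4 and 10.5 FPKM in control medium. The glutamine-deprived library was below the other 4, which lay close together. GFPT1 fell in glutamine deprivation (log2 fold change -0.36 ± 0.05, adjusted p = 0.000592), to 75.6% of the control mean, a call lost under scaling to the total (-0.06, adjusted p = 0.403), and did not pass the test in glucose deprivation (-0.01 ± 0.04, adjusted p = 0.885), where that scaling called it higher (0.16, adjusted p = 0.0170). The direct difference between the deprivations was as large as that from control (-0.36 ± 0.05, adjusted p = 0.000946). Each error here and below is a standard error on the log2(FPKM + 1) scale, which understates changes of weakly expressed genes.

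GFPT2, the second amidotransferase, was at 6.35 FPKM without glutamine, 4.69 and 5.06 FPKM without glucose, and 5.41 and 5.72 FPKM in control medium. It was highest in the glutamine-deprived library and lowest in both glucose-deprived ones, with no overlap between groups. The direct difference passed the test (log2 0.32 ± 0.07, adjusted p = 0.00749), the difference between glutamine deprivation and control did not (0.16 ± 0.07, adjusted p = 0.0906), and the fall in glucose deprivation was marginal (-0.16 ± 0.06, adjusted p = 0.0470). Against control, glutamine deprivation was called higher with values as deposited (0.30, adjusted p = 0.00778), by upper quartile (0.32, adjusted p = 0.00684), under scaling to the total (0.45, adjusted p = 0.00103) and with the trend over GC content and length removed (0.19, adjusted p = 0.0397). The fall in glucose deprivation was lost under each of these settings and on leaving out any 1 of the 4 glucose-deprived and control libraries, with adjusted p-values of 0.0523 to 0.228. The ratio of GFPT2 to GFPT1 within a library, which no scaling between libraries can alter, was 0.804 without glutamine, 0.450 and 0.491 without glucose, and 0.522 and 0.543 in control medium.

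The later enzymes of the route differed among themselves. GNPNAT1 acetylates glucosamine 6-phosphate, and was at 19.3 FPKM without glutamine, 18.1 and 18.5 FPKM without glucose, and 24.9 and 26.3 FPKM in control medium. All 3 deprived libraries were below both controls, and GNPNAT1 fell in glutamine deprivation (log2 fold change -0.39 ± 0.06, adjusted p = 0.000679) and in glucose deprivation (-0.46 ± 0.05, adjusted p = 9.58e-05). The first of these calls was lost with the trend over GC content and length removed (-0.12, adjusted p = 0.0729) and under scaling to the total (-0.07, adjusted p = 0.353). Of its exon bases 35.6% lie in exons of a gene on the opposite strand, so reads from that gene may be included. UAP1 (ENSG00000117143.13, chr1:162561506-162599842, plus strand) makes UDP-GlcNAc itself in the last step. Its level was 20.2 FPKM without glutamine, 20.7 and 20.5 FPKM without glucose, and 31.5 and 33.1 FPKM in control medium. The deprived libraries lay close together and well below the controls. UAP1 fell to 62.6% of control without glutamine (log2 fold change -0.65 ± 0.05, adjusted p = 5.86e-05) and to 63.8% without glucose (-0.62 ± 0.04, adjusted p = 2.08e-05), and the direct difference did not pass (-0.03 ± 0.05, adjusted p = 0.709). PGM3, the mutase between those steps, was like GFPT1 in that it fell without glutamine (-0.36 ± 0.05, adjusted p = 0.000555) and was -0.01 ± 0.04 without glucose (adjusted p = 0.811). Under scaling to the total PGM3 was not called without glutamine (-0.05, adjusted p = 0.449) and was called higher without glucose (0.16, adjusted p = 0.0156).

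O-GlcNAc cycling depends on OGT, the only enzyme that adds this sugar to nuclear and cytosolic proteins, and OGA, the enzyme that removes it. OGT (ENSG00000147162.13, chrX:71533083-71575897, plus strand) was at 48.1 FPKM without glutamine, 50.4 and 50.5 FPKM without glucose, and 36.1 and 37.9 FPKM in control medium. Every deprived library exceeded both controls. OGT rose in glutamine deprivation (log2 fold change 0.37 ± 0.05, adjusted p = 0.000743) and in glucose deprivation (0.44 ± 0.04, adjusted p = 0.000103), with no called difference between them (-0.07 ± 0.05, adjusted p = 0.351). OGA (ENSG00000198408.13, chr10:101784443-101818465, minus strand) was at 28.3 FPKM without glutamine, 20.3 and 18.2 FPKM without glucose, and 26.6 and 26.4 FPKM in control medium. Both glucose-deprived libraries were lower than the other 3. OGA fell in glucose deprivation (-0.45 ± 0.05, adjusted p = 0.000284) and did not pass the test in glutamine deprivation (0.09 ± 0.07, adjusted p = 0.295), and the direct difference was called (0.54 ± 0.07, adjusted p = 0.000557). In glutamine deprivation OGA was called higher with values as deposited (0.25, adjusted p = 0.0293), by upper quartile (0.26, adjusted p = 0.0158) and under scaling to the total (0.42, adjusted p = 0.00269). The ratio of OGT to OGA within a library was 1.70 without glutamine, 2.48 and 2.78 without glucose, and 1.35 and 1.44 in control medium. The 3 groups did not overlap in this ratio, which was lowest in the controls and highest without glucose. NAGK, the kinase that salvages free GlcNAc, stayed between 1.64 and 1.88 FPKM in the 5 libraries and passed no test, although without glutamine it was called higher with values as deposited (0.23, adjusted p = 0.0336), by upper quartile (0.24, adjusted p = 0.0281) and under scaling to the total (0.34, adjusted p = 0.00522), and without glucose under the last of these (0.21, adjusted p = 0.0184).

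**Figure D2:**
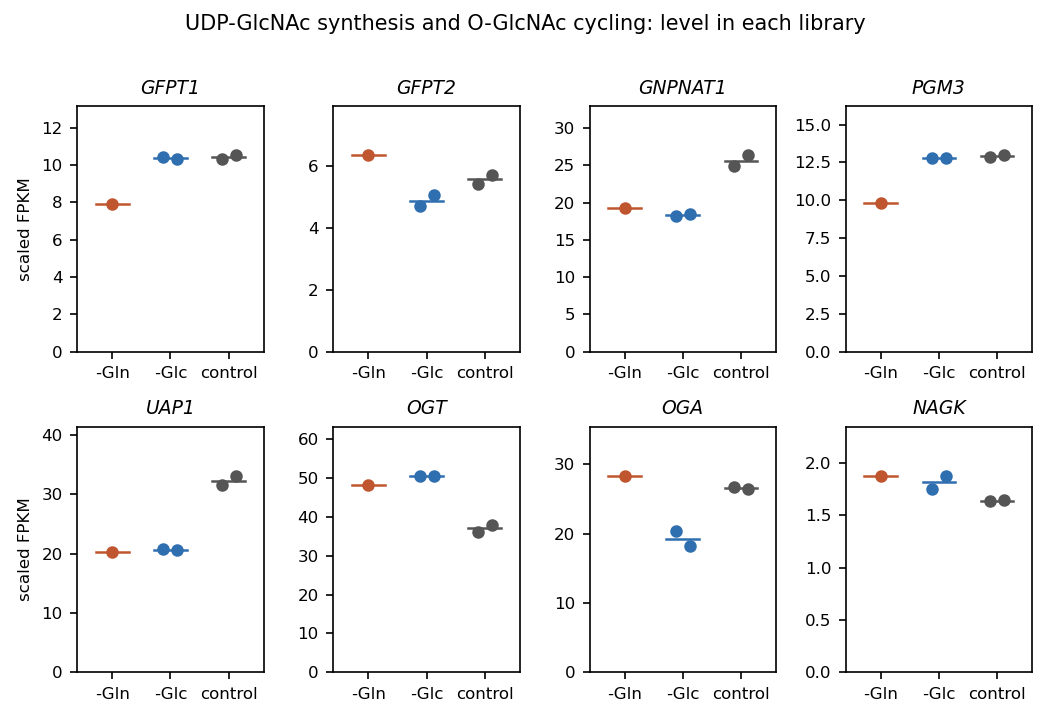
Scaled FPKM (vertical axis, from 0) of the 5 UDP-GlcNAc synthesis genes and of OGT, OGA and NAGK in each library of glutamine deprivation (-Gln, 1 library), glucose deprivation (-Glc, 2 libraries) and control (2 libraries). Points are libraries and lines are group means; GFPT1 and PGM3 are low without glutamine only, GNPNAT1 and UAP1 are low in both deprived media, and OGA is low without glucose only.

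Most enzymes that make the mannose and glucose donors fell without glutamine. Of the 6 genes 5 fell and 1 rose in glutamine deprivation (median log2 fold change -0.35; 1 lower and 1 higher under scaling to the total), whereas in glucose deprivation 1 rose and 2 fell (median 0.03), against 2 higher and 1 lower as deposited and 4 higher and 1 lower under scaling to the total (median 0.18). Directly compared, 5 were lower and 1 higher without glutamine, or 3 lower and 1 higher as deposited and under scaling to the total. MPI links fructose 6-phosphate to mannose 6-phosphate, the entry of glucose carbon into mannose. Its level was 8.80 FPKM without glutamine, 12.3 and 13.0 FPKM without glucose, and 11.7 and 11.5 FPKM in control medium. The glutamine-deprived library was the lowest and both glucose-deprived libraries the highest. MPI fell without glutamine (-0.36 ± 0.05, adjusted p = 0.000861; scaled to the total, -0.05, adjusted p = 0.405) and differed most of this role in the direct comparison (-0.48 ± 0.05, adjusted p = 0.000340). Its rise without glucose was small (0.12 ± 0.04, adjusted p = 0.0486) and was lost without glucose-deprived replicate 2 (adjusted p = 0.129), control replicate 1 (0.208) or control replicate 2 (0.264), under the replicate block (0.0858), and with the trend over GC content and length removed (0.07, adjusted p = 0.150).

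Both phosphomannomutases, which convert mannose 6-phosphate to mannose 1-phosphate, moved in opposite directions without glutamine. PMM2, the main mutase of glycosylation, fell in glutamine deprivation (-0.60 ± 0.06, adjusted p = 9.13e-05) and in glucose deprivation (-0.41 ± 0.05, adjusted p = 0.000171), although 25.5% of its exon bases are shared with other genes. PMM1, its paralog, rose without glutamine (0.28 ± 0.08, adjusted p = 0.0173), a call lost without control replicate 1 (adjusted p = 0.0694) or control replicate 2 (0.112). Their direct differences between the deprivations, -0.19 ± 0.06 and 0.23 ± 0.08, were both lost under the replicate block, with adjusted p = 0.0839 for PMM2 and 0.107 for PMM1, and on leaving out single libraries of glucose deprivation or control (0.0509 to 0.0703 for PMM2 and 0.0796 to 0.118 for PMM1). GMPPA, the regulatory partner of the GDP-mannose pyrophosphorylase, fell without glutamine (-0.33 ± 0.06, adjusted p = 0.00249), a call lost as deposited (-0.18, adjusted p = 0.0524) and under scaling to the total (-0.03, adjusted p = 0.725). Its catalytic partner GMPPB also fell (-0.21 ± 0.06, adjusted p = 0.0250), but was at 0.09 when libraries were scaled to their totals. The call of GMPPB was also lost as deposited (-0.07), by upper quartile (-0.06), under the replicate block (-0.19) and without control replicate 1 or 2. Of the exon bases of GMPPB, 54.1% lie in exons of other genes, chiefly AMIGO3. UGP2, the source of UDP-glucose, fell in glutamine deprivation (-0.45 ± 0.07, adjusted p = 0.00154) and, less surely, in glucose deprivation (-0.17 ± 0.06, adjusted p = 0.0423). The second call was lost without glucose-deprived replicate 2, control replicate 1 or control replicate 2. UGP2 also lost it as deposited (-0.13), by upper quartile (-0.09) and with the trend over GC content and length removed (-0.12). Its direct difference (-0.28 ± 0.07, adjusted p = 0.0179) was likewise lost without glucose-deprived replicate 1, control replicate 1 or control replicate 2 (0.0526 to 0.0759).

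Dolichol phosphate and the sugars it carries were the role with the lowest medians against control in both media. In glutamine deprivation 5 of 6 genes fell (median log2 fold change -0.64), and in glucose deprivation 5 of 6 fell (median -0.35). None rose in either, and under scaling to the total 4 fell and 1 rose in each. With the trend over GC content and length removed, the medians were -0.41 without glutamine and -0.30 without glucose. The first was then near the -0.36 of oligosaccharyltransferase. DOLK, the kinase that makes dolichol phosphate from dolichol, was at 5.77 FPKM without glutamine, 6.15 and 5.23 FPKM without glucose, and 10.2 and 10.5 FPKM in control medium. Both controls exceeded every deprived library. DOLK fell in glutamine deprivation (-0.74 ± 0.10, adjusted p = 0.000418) and in glucose deprivation (-0.76 ± 0.08, adjusted p = 0.000115). SRD5A3, the reductase of the preceding step, fell in glutamine deprivation (-0.31 ± 0.06, adjusted p = 0.00386), and this call was lost as deposited (-0.17, adjusted p = 0.0623), by upper quartile (-0.15, adjusted p = 0.0626), under scaling to the total (-0.01, adjusted p = 0.855) and with the trend over GC content and length removed (-0.15, adjusted p = 0.0705). Its smaller fall in glucose deprivation (-0.14 ± 0.05, adjusted p = 0.0472) turned to 0.03 under scaling to the total, and was lost there, as deposited, by upper quartile, with that trend removed and on leaving out any 1 glucose-deprived or control library (0.0702 to 0.156).

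Dolichol phosphate mannose is made by a complex of DPM1, DPM2 and DPM3. DPM1, the catalytic subunit, was at 23.2 FPKM without glutamine, 29.6 and 28.7 FPKM without glucose, and 37.5 and 37.4 FPKM in control medium. DPM3, which holds DPM1 at the membrane, was at 17.6 FPKM without glutamine, 15.5 and 15.9 FPKM without glucose, and 30.7 and 28.6 FPKM in control medium. Both were below control in every deprived library, with DPM1 lowest without glutamine and DPM3 lowest without glucose. DPM1 fell in glutamine deprivation (-0.67 ± 0.06, adjusted p = 7.06e-05) and in glucose deprivation (-0.35 ± 0.05, adjusted p = 0.000479). DPM3 fell in glutamine deprivation (-0.72 ± 0.08, adjusted p = 0.000233) and had the most negative log2 fold change of the 43 genes in glucose deprivation (-0.88 ± 0.07, adjusted p = 2.94e-05). DPM2, the regulatory subunit, fell without glucose (-0.35 ± 0.05, adjusted p = 0.000477), was 0.03 ± 0.06 without glutamine (adjusted p = 0.741, but 0.18, adjusted p = 0.0411 as deposited), and was higher without glutamine than without glucose (0.38 ± 0.06, adjusted p = 0.00147). With exons of 622 bases, DPM3 was the shortest of the 43 genes; with the genome-wide trend over GC content and length removed, its log2 fold change was -0.95 in glutamine deprivation and -0.98 in glucose deprivation.

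ALG5, which makes dolichol phosphate glucose for the last sugars of the glycan, stood apart from this role in glucose deprivation. Its level was 12.8 FPKM without glutamine, 20.8 and 21.1 FPKM without glucose, and 20.3 and 20.2 FPKM in control medium. The glutamine-deprived library was far below the other 4, which spanned less than 1 FPKM. ALG5 fell without glutamine (-0.62 ± 0.06, adjusted p = 8.19e-05), did not pass without glucose (0.05 ± 0.05, adjusted p = 0.428), where it was called higher by upper quartile (0.14, adjusted p = 0.0344), under scaling to the total (0.23, adjusted p = 0.00456) and with the trend over GC content and length removed (0.13, adjusted p = 0.0281), and had the most negative direct difference of the 6 genes (-0.66 ± 0.06, adjusted p = 0.000110).

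On the cytosolic face, where the first sugars are placed on dolichol phosphate, 3 of the 6 genes passed no test against control in either deprivation. In each deprivation 1 of 6 genes rose and 2 fell against control, with medians of -0.10 without glutamine and -0.02 without glucose that turned to 0.15 and 0.12 under scaling to the total. DPAGT1, the enzyme that commits dolichol phosphate to N-glycan assembly by adding GlcNAc phosphate, was at 5.01 FPKM without glutamine, 5.41 and 5.23 FPKM without glucose, and 5.23 and 5.72 FPKM in control medium. Its log2 fold change was -0.11 ± 0.07, adjusted p = 0.238 in glutamine deprivation and -0.03 ± 0.06, adjusted p = 0.647 in glucose deprivation. The libraries spanned less than 1 FPKM, and the controls overlapped the glucose-deprived libraries. DPAGT1 therefore showed no difference that this design could detect, while UAP1 just before it and DOLK beside it were both lower.

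The second GlcNAc is added by ALG13, the catalytic subunit, together with its membrane anchor ALG14. ALG13 was at 12.7 FPKM without glutamine, 15.1 and 12.9 FPKM without glucose, and 8.03 and 9.24 FPKM in control medium. All deprived libraries were above both controls. ALG13 rose in glutamine deprivation (0.52 ± 0.10, adjusted p = 0.00326), a call lost without control replicate 1 (adjusted p = 0.0571), and in glucose deprivation (0.64 ± 0.08, adjusted p = 0.000349). ALG14, the least abundant of the 43 genes at 1.45 to 1.68 FPKM, passed no test. The ratio of ALG13 to ALG14 was 8.81 without glutamine, 9.84 and 7.66 without glucose, and 5.14 and 5.57 in control medium.

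The mannosyltransferases ALG1 and ALG2, which add the first mannoses, fell in both media. ALG1 was at -0.49 ± 0.08, adjusted p = 0.00117 in glutamine deprivation and -0.21 ± 0.06, adjusted p = 0.0256 in glucose deprivation. The second call was lost without glucose-deprived replicate 1, control replicate 1 or control replicate 2. ALG1 also lost it as deposited (-0.17), by upper quartile (-0.12) and with the trend over GC content and length removed (-0.14). Of its exon bases 42.3% are shared with other genes. ALG1 was also lower without glutamine than without glucose (-0.29 ± 0.08, adjusted p = 0.0177), but not without glucose-deprived replicate 2, control replicate 1 or control replicate 2 (0.0503 to 0.0810). ALG2 was at -0.36 ± 0.07, adjusted p = 0.00463 in glutamine deprivation and -0.28 ± 0.06, adjusted p = 0.00508 in glucose deprivation, and the first was lost as deposited (-0.21, adjusted p = 0.0707) and both under scaling to the total (-0.05 and -0.11). Without control replicate 2 both were also lost (adjusted p = 0.0572 and 0.0730). ALG11, the next mannosyltransferase, stayed between 6.10 and 6.68 FPKM in the 5 libraries and passed no test, but under scaling to the total it was called higher without glutamine (0.30, adjusted p = 0.00591) and without glucose (0.21, adjusted p = 0.0139). It shares 39.7% of its exon bases with UTP14C on the same strand.

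Assembly in the ER lumen set both deprivations apart. Of the 6 genes none rose and 2 fell in glutamine deprivation (median log2 fold change -0.08, or 0.21 with 3 higher and 2 lower under scaling to the total), and 4 rose and 1 fell in glucose deprivation (median 0.28). All 6 were lower without glutamine than without glucose (median -0.37), of which 3 were called under scaling to the total (median -0.24) or as deposited (median -0.27). ALG12 (ENSG00000182858.13, chr22:49900229-49918458, minus strand), a mannosyltransferase of the ER lumen, was at 6.03 FPKM without glutamine, 8.32 and 9.84 FPKM without glucose, and 6.10 and 5.54 FPKM in control medium. Both glucose-deprived libraries were above the other 3, which overlapped between glutamine deprivation and control. ALG12 rose in glucose deprivation (0.56 ± 0.08, adjusted p = 0.000529), was 0.05 ± 0.10 in glutamine deprivation (adjusted p = 0.716; scaled to the total, 0.34, adjusted p = 0.0113), and differed directly (-0.52 ± 0.10, adjusted p = 0.00328). Of its exon bases 42.1% lie in exons of genes on the opposite strand, whose reads cannot be told apart here, since the strand setting of the counting is not given in the sources used.

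ALG12 was also the only one of the 39 genes with a promoter window in RefSeq (GRCh38.p14) that holds the ER stress response element, CCAAT and CCACG with 9 bases of any kind between them, searched on both strands. The element is the sequence bound by ATF6 with NF-Y upstream of ER chaperone genes. Counted by gene, as for the 39, it occurs in 25 of 27305 genes, or 0.0916%. By window it occurs in 27 of 35116 windows of this length, or 0.0769%. The 300-base window of ALG12 runs from 250 bases before to 50 bases after the annotated start, at chr22:49918389-49918688 on the minus strand, and is printed because it carries this match. Capitals mark the fixed letters of the element, which begins 134 bases before the start, at chr22:49918554-49918572.
ALG12 promoter: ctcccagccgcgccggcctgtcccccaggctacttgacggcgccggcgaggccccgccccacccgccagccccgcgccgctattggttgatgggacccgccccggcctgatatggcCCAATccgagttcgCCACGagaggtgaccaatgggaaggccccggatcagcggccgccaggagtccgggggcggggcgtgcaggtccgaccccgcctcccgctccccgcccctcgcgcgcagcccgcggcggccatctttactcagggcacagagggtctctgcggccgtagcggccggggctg

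The same element in promoters of ER chaperones, folding factors and their regulator XBP1 is given for comparison, 5′ to 3′ on the strand of the match, with the fixed letters in capitals.
ALG12 site: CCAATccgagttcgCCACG
HSPA5 site: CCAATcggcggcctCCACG
HSP90B1 site nearer the start: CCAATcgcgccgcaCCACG
HSP90B1 site farther from the start: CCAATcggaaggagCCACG
CALR site: CCAATgatggtcgaCCACG
CANX site: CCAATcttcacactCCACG
XBP1 site: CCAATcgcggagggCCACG
These sites share their fixed letters by construction, and only the 9 bases between differ. The genes shown come from lists of ER quality control and unfolded protein response genes. Changes of other genes among the 25 with this element are not given. Whether the element had a part in any change was not tested. In glucose deprivation HSPA5 rose by 1.07 ± 0.06 (log2), HSP90B1 by 1.05 ± 0.05, CALR by 0.88 ± 0.04, CANX by 0.44 ± 0.05 and XBP1 by 0.46 ± 0.05, beside 0.56 ± 0.08 for ALG12. In glutamine deprivation HSPA5 was at -0.26 ± 0.07, HSP90B1 at -0.51 ± 0.06, CALR at -0.71 ± 0.05 and CANX at -0.43 ± 0.06, all called lower. XBP1 was at 0.22 ± 0.06, called higher, and ALG12 was not called. Scaling to the total moved the median of all genes by 0.27 in this comparison, and values of these 5 comparison genes under it are not given. No window of the 39 genes held, on either strand, a second element of the same response, ATTGG and CCACG with 1 base between (0.0541% of all windows), or TGACGTGG, the unfolded protein response element (0.729%). None held TGATG and AA with 1 base between, a form of the element bound by ATF4 (3.62%), or a carbohydrate response element of 2 CACGTG parts with 5 bases between (0.00570%). A match describes letters only, and its absence says only that these letters are not in the window.

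The other lumenal transferases went in different directions in glucose deprivation. ALG3, the first mannosyltransferase of the lumen, rose in glucose deprivation (0.26 ± 0.07, adjusted p = 0.0177), but lost this call without glucose-deprived replicate 2, control replicate 1 or control replicate 2 (adjusted p 0.0692 to 0.188); its log2 fold change in glutamine deprivation was -0.05 ± 0.09 and turned to 0.24 under scaling to the total. ALG9, the mannosyltransferase that acts around ALG12, rose in glucose deprivation (0.30 ± 0.06, adjusted p = 0.00231), although 24.4% of its exon bases are shared with another gene on the same strand. ALG10, which adds the terminal glucose, rose in glucose deprivation (0.32 ± 0.05, adjusted p = 0.00159) as did its near-identical copy ALG10B (0.26 ± 0.05, adjusted p = 0.00191), and reads may be split between the copies. For ALG10, 42.2% of exon bases also lie in exons of a gene on the opposite strand, whose reads may be included. The glucosyltransferases ALG6 and ALG8 behaved otherwise. ALG6 fell in glutamine deprivation (-0.58 ± 0.07, adjusted p = 0.000213) and was -0.14 ± 0.05 in glucose deprivation (adjusted p = 0.0561), and ALG8 fell in glutamine deprivation (-0.56 ± 0.07, adjusted p = 0.000355) and in glucose deprivation (-0.29 ± 0.06, adjusted p = 0.00334, or adjusted p = 0.0590 without control replicate 2).

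In the direct comparison the 6 lumenal log2 differences ran from -0.52 for ALG12 to -0.24 for ALG9. Those of ALG6 (-0.44 ± 0.07, adjusted p = 0.00117), ALG10 (-0.43 ± 0.07, adjusted p = 0.00145) and ALG12 stayed called on leaving out any library. Those of ALG3 (-0.31 ± 0.09, adjusted p = 0.0237), ALG8 (-0.27 ± 0.07, adjusted p = 0.0144) and ALG9 (-0.24 ± 0.07, adjusted p = 0.0223) were lost without control replicate 1 or 2, and for ALG3 and ALG9 also without glucose-deprived replicate 2, with adjusted p-values of 0.0685 to 0.0962, 0.0659 to 0.0682 and 0.0641 to 0.0753.

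Oligosaccharyltransferase, the complex that transfers the finished glycan, was the most abundant role. Its 8 subunits summed to 469 FPKM without glutamine, 625 and 656 FPKM without glucose, and 669 and 653 FPKM in control medium. All 8 fell in glutamine deprivation (median log2 fold change -0.43), 7 of 8 were lower without glutamine than without glucose (median -0.50), and in glucose deprivation 5 rose and 2 fell (median 0.14). The falls without glutamine depended on scaling: 6 of 8 were called as deposited or by upper quartile and 3 of 8 under scaling to the total, where STT3A was at 0.00, STT3B at 0.03 and RPN2 at 0.12. The direct count was 7 of 8 under each of these scalings.

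The catalytic subunits are STT3A, which works beside the translocon as proteins enter the ER, and STT3B, which can also act after translation. STT3A (ENSG00000134910.13, chr11:125591712-125625215, plus strand) was at 25.9 FPKM without glutamine, 41.3 and 41.8 FPKM without glucose, and 32.4 and 33.2 FPKM in control medium. STT3B was at 40.3 FPKM without glutamine, 56.9 and 52.7 FPKM without glucose, and 49.7 and 49.8 FPKM in control medium. For both, the glutamine-deprived library was lowest and the glucose-deprived libraries were above the controls. STT3A fell in glutamine deprivation (-0.33 ± 0.05, adjusted p = 0.000898), rose in glucose deprivation (0.33 ± 0.04, adjusted p = 0.000264) and had a direct difference of -0.66 ± 0.05, adjusted p = 7.36e-05. STT3B fell in glutamine deprivation (-0.30 ± 0.06, adjusted p = 0.00329) and differed directly (-0.43 ± 0.06, adjusted p = 0.000751). Its rise without glucose (0.13 ± 0.05, adjusted p = 0.0411) was lost without glucose-deprived replicate 1 (adjusted p = 0.126), control replicate 1 (0.239) or control replicate 2 (0.230), and under the replicate block (0.0646). The ratio of STT3A to STT3B was 0.643 without glutamine, 0.726 and 0.794 without glucose, and 0.651 and 0.667 in control medium, highest in the glucose-deprived libraries.

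RPN1, RPN2 and DDOST are large subunits shared by both forms of the complex. RPN1, the most abundant of the 43 genes, was at 90.6 FPKM without glutamine, 128 and 139.8 FPKM without glucose, and 120.4 and 120.1 FPKM in control medium. DDOST was at 58.9 FPKM without glutamine, 89.1 and 90.4 FPKM without glucose, and 82.0 and 79.9 FPKM in control medium. In both the glutamine-deprived library was lowest and the groups did not overlap. Lower levels in glutamine deprivation were called for RPN1 (-0.40 ± 0.06, adjusted p = 0.00102), RPN2 (-0.22 ± 0.05, adjusted p = 0.00988) and DDOST (-0.45 ± 0.05, adjusted p = 0.000180). Directly they were at -0.56 ± 0.06, -0.39 ± 0.05 and -0.60 ± 0.05, all called. Without glucose their rises were small, at 0.15 ± 0.05 for RPN1, 0.17 ± 0.04 for RPN2 and 0.15 ± 0.04 for DDOST. Each was lost without control replicate 1 or control replicate 2, with adjusted p-values of 0.106 to 0.226 for RPN1 (also without glucose-deprived replicate 2), 0.0852 to 0.148 for RPN2 and 0.0986 to 0.167 for DDOST, so that without either control 1 subunit, STT3A, was called higher in glucose deprivation in place of 5. The fall of RPN2 in glutamine deprivation was also lost without either control (adjusted p 0.0587 to 0.0887).

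The small subunits went another way in glucose deprivation. DAD1 (ENSG00000129562.10, chr14:22564905-22589269, minus strand), a small integral subunit named as a defender against cell death, was at 73.2 FPKM without glutamine, 69.8 and 77.1 FPKM without glucose, and 124 and 118 FPKM in control medium. OST4, a minimal subunit that steadies the STT3 proteins, was at 55.3 FPKM without glutamine, 70.6 and 78.8 FPKM without glucose, and 99.9 and 93.4 FPKM in control medium. Every deprived library was below both controls for these subunits. DAD1 fell to 60.6% of control without glutamine (-0.71 ± 0.07, adjusted p = 0.000110) and to 60.8% without glucose (-0.71 ± 0.06, adjusted p = 3.49e-05), with a direct difference of 0.00 ± 0.07, adjusted p = 0.977. OST4 fell in glutamine deprivation (-0.79 ± 0.08, adjusted p = 0.000109) and in glucose deprivation (-0.37 ± 0.06, adjusted p = 0.00152), and was lower without glutamine in the direct comparison (-0.42 ± 0.08, adjusted p = 0.00298). Exons of DAD1 span 808 bases and those of OST4 719 bases, the shortest of the 43 genes after DPM3; with the trend over GC content and length removed, DAD1 was at -0.77 and -0.79 and OST4 at -0.93 and -0.46 in glutamine and glucose deprivation.

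MAGT1, the oxidoreductase subunit of the STT3B form, was at 32.8 FPKM without glutamine, 50.5 and 50.7 FPKM without glucose, and 51.8 and 52.0 FPKM in control medium. The glutamine-deprived library alone was low. MAGT1 fell in glutamine deprivation (-0.65 ± 0.05, adjusted p = 3.87e-05), did not pass in glucose deprivation (-0.04 ± 0.04, adjusted p = 0.450), where total scaling gave 0.15, and was lower in the direct comparison (-0.61 ± 0.05, adjusted p = 8.10e-05). Within libraries, the ratio of STT3A to DAD1 was 0.354 without glutamine, 0.591 and 0.543 without glucose, and 0.262 and 0.282 in control medium, and that of RPN1 to DAD1 was 1.24 without glutamine, 1.84 and 1.81 without glucose, and 0.974 and 1.02 in control medium. Both ratios were lowest in control medium and highest without glucose, with the glutamine-deprived library between, so the subunits of one complex did not keep their RNA proportions in either deprived medium.

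**Figure D3:**
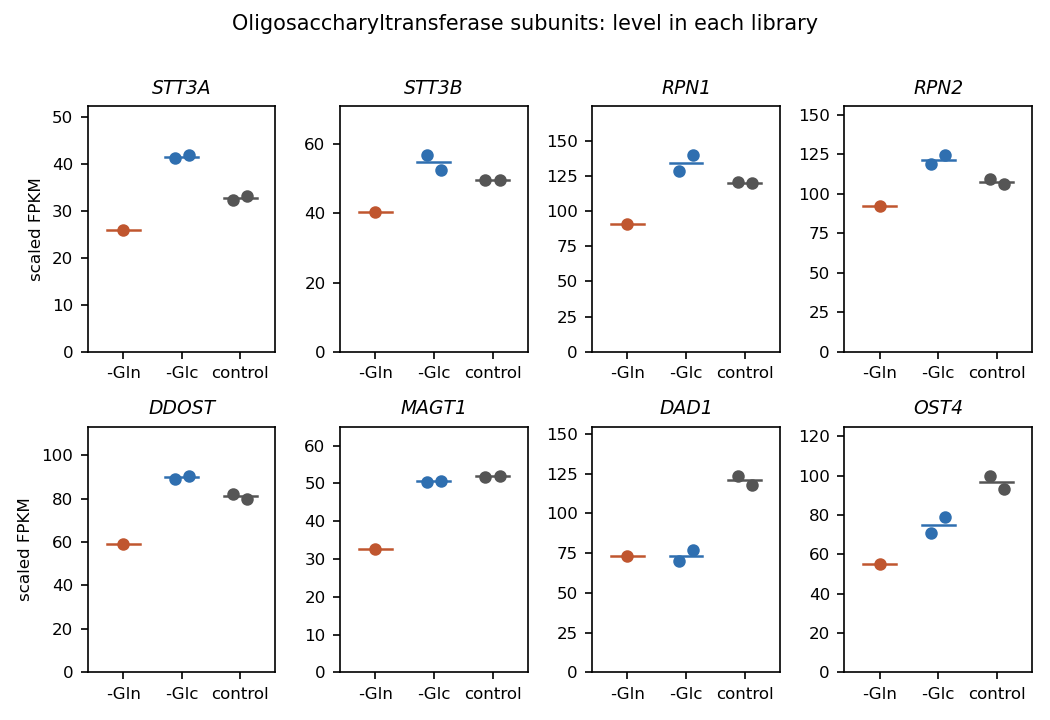
Scaled FPKM (vertical axis, from 0) of the 8 oligosaccharyltransferase subunits in each library of glutamine deprivation (-Gln), glucose deprivation (-Glc) and control. Points are libraries and lines are group means; STT3A, STT3B, RPN1, RPN2, DDOST and MAGT1 are lowest in the glutamine-deprived library, while DAD1 is at 69.8 to 77.1 FPKM in the deprived libraries and 118 to 124 FPKM in the controls.

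**Figure D4:**
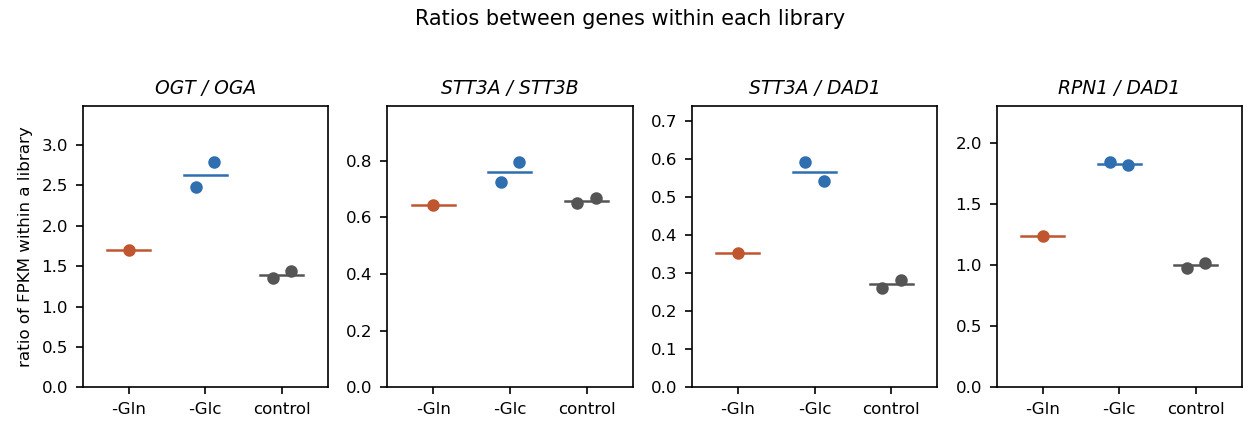
Ratio of the FPKM of one gene to that of another within each library (vertical axis, from 0, no unit), for OGT over OGA, STT3A over STT3B, STT3A over DAD1 and RPN1 over DAD1, by medium. Points are libraries and lines are group means; OGT over OGA is 2.48 and 2.78 without glucose, above the 1.70 without glutamine and the 1.35 and 1.44 in control medium.

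Among 4 further subunits of the complex from a list of other pathway genes, 3 fell and none rose in glutamine deprivation (median log2 fold change -0.58), 1 rose and none fell in glucose deprivation (median 0.02), and 3 were lower in the direct comparison (median -0.72). OSTC, an adaptor that joins the STT3A form to the translocon, was at 43.7 FPKM without glutamine, 88.2 and 91.3 FPKM without glucose, and 63.8 and 60.8 FPKM in control medium. The 3 groups were far apart. OSTC fell without glutamine (-0.50 ± 0.05, adjusted p = 0.000185), rose without glucose (0.52 ± 0.04, adjusted p = 4.87e-05) and had a direct difference of -1.02 ± 0.05, adjusted p = 2.55e-05. TMEM258 fell without glutamine (-0.75 ± 0.07, adjusted p = 9.99e-05), as did KRTCAP2 (-0.65 ± 0.08, adjusted p = 0.000394), and neither passed the test without glucose (0.10 ± 0.06 and -0.07 ± 0.07). TUSC3, the paralog of MAGT1, passed no test; its log2 fold change in glutamine deprivation was -0.21 ± 0.08, adjusted p = 0.0517.

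The enzymes of trimming and the folding check moved separately. MOGS, the glucosidase that removes the outermost glucose, fell in glucose deprivation (-0.45 ± 0.07, adjusted p = 0.000723), was 0.01 ± 0.08 in glutamine deprivation (adjusted p = 0.897; scaled to the total, 0.33, adjusted p = 0.00558) and was higher without glutamine than without glucose (0.46 ± 0.08, adjusted p = 0.00253). GANAB, the catalytic subunit of the next glucosidase, rose in glutamine deprivation (0.23 ± 0.05, adjusted p = 0.00612) and in glucose deprivation (0.18 ± 0.04, adjusted p = 0.00713); without control replicate 1 or 2 adjusted p-values were 0.0639 to 0.0934 and 0.0747 to 0.126. UGGT1 puts a glucose back on glycoproteins that are not yet folded. It rose in glucose deprivation (0.28 ± 0.05, adjusted p = 0.00130) and was lower without glutamine in the direct comparison (-0.32 ± 0.06, adjusted p = 0.00274), and its log2 fold change of -0.04 ± 0.06 in glutamine deprivation was not called (adjusted p = 0.598). It was called lower with the trend over GC content and length removed (-0.16, adjusted p = 0.0130) and higher under scaling to the total (0.28, adjusted p = 0.00940).

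Of 14 further genes of glycoprotein quality control in the ER, 4 rose and 7 fell in glutamine deprivation, 6 rose and 3 fell in glucose deprivation, and 1 was higher and 8 lower in the direct comparison. CALR, the lumenal lectin chaperone, had log2 fold changes of -0.71 ± 0.05 without glutamine and 0.88 ± 0.04 without glucose and a direct difference of -1.59 ± 0.05. CANX, its membrane-bound counterpart, was at -0.43 ± 0.06, 0.44 ± 0.05 and -0.87 ± 0.06 in the same order. PDIA3, the disulfide isomerase that works with both, had a direct difference of -0.79 ± 0.05; LMAN1, a cargo lectin for export, fell without glutamine (log2 fold change -0.49 ± 0.05); PRKCSH, the other subunit of the GANAB enzyme, rose by 0.49 ± 0.06 without glucose.

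The 8 reference genes of the unfolded protein response are given beside these roles because the ER genes above moved in the same samples. In glucose deprivation all 8 rose (median log2 fold change 0.85), in glutamine deprivation 4 rose and 4 fell (median -0.04), and in the direct comparison 7 were lower without glutamine (median -1.02). DDIT3, the stress factor CHOP, rose in both media (1.38 ± 0.06 without glutamine and 2.48 ± 0.05 without glucose). HSP90B1 had a direct difference of -1.57 ± 0.06, HSPA5 of -1.33 ± 0.07, and SDF2L1, a cochaperone, of -1.13 ± 0.09. These counts are under the scaling used, and scaling to the total moved the median of all genes by 0.27 in glutamine deprivation. The part of this response in the levels of the 43 genes was not tested.

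Genes that feed or drain the route are given by list. Beside these counts, 51.1% of all genes were called in glutamine deprivation, 54.9% in glucose deprivation and 44.7% in the direct comparison. In salvage of amino sugars and sialic acid synthesis, 5 of 8 fell in glutamine deprivation and none rose, 3 rose and 4 fell in glucose deprivation, and 1 was higher and 4 lower in the direct comparison. GNPDA1, which returns glucosamine 6-phosphate to glycolysis, fell in glutamine deprivation (-0.67 ± 0.07, adjusted p = 0.000201) and in glucose deprivation (-0.56 ± 0.06, adjusted p = 0.000145), and GNPDA2 fell without glutamine (-0.48 ± 0.08, adjusted p = 0.00133). CMAS, which activates sialic acid, fell without glutamine (-0.64 ± 0.06, adjusted p = 9.46e-05), and NANP, the phosphatase before it, fell without glucose (-0.48 ± 0.05, adjusted p = 0.000135). RENBP was lower without glutamine than without glucose (-0.93 ± 0.15, adjusted p = 0.00163) at levels of 0.600 to 2.09 FPKM.

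Of 5 genes of hexose phosphate supply, 2 fell without glutamine, and 1 rose and 3 fell without glucose. HK2, a hexokinase, rose in glucose deprivation (0.57 ± 0.06, adjusted p = 0.000158) and was lower without glutamine in the direct comparison (-0.63 ± 0.08, adjusted p = 0.000461). GPI, the isomerase that forms fructose 6-phosphate, fell in glucose deprivation (-0.49 ± 0.04, adjusted p = 3.79e-05) and was higher without glutamine in the direct comparison (0.43 ± 0.05, adjusted p = 0.000390). PGM2 fell without glutamine (-0.47 ± 0.06, adjusted p = 0.000437). Of 7 genes of GDP-fucose and UDP-sugar supply, 1 rose and 3 fell in each deprivation; FPGT, of the fucose salvage route, fell in both (-0.49 ± 0.08 without glutamine and -0.51 ± 0.06 without glucose), as did UGDH, which makes UDP-glucuronic acid (-0.54 ± 0.07 and -0.28 ± 0.06, the second with adjusted p = 0.0579 without control replicate 2).

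Of 6 genes of dolichol synthesis and recycling, 4 fell and none rose in glutamine deprivation, 2 rose and 1 fell in glucose deprivation, and 5 were lower in the direct comparison. MPDU1, needed for the use of dolichol-linked mannose and glucose, fell without glutamine (-0.72 ± 0.06, adjusted p = 6.58e-05) and was lower in the direct comparison (-0.56 ± 0.06, adjusted p = 0.000329). DOLPP1, which recycles dolichol pyrophosphate, was lower without glutamine than without glucose (-0.64 ± 0.09, adjusted p = 0.000777). Of 6 nucleotide sugar transporters tested out of 7, 1 rose and 2 fell without glutamine, and 2 rose and 1 fell without glucose; SLC35C1, the GDP-fucose transporter, had a direct difference of 0.68 ± 0.09, adjusted p = 0.000643.

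Golgi processing follows the steps above. Its genes were called about as often as all genes (51.1% in glutamine deprivation, 54.9% in glucose deprivation and 44.7% in the direct comparison). Of 12 genes tested out of 13, 4 rose and 2 fell in glutamine deprivation, 2 rose and 5 fell in glucose deprivation, and 4 were higher and 1 lower in the direct comparison. B4GALT1, the main galactosyltransferase of N-glycans, rose without glutamine (0.77 ± 0.07, adjusted p = 7.17e-05) and was 0.06 ± 0.06 without glucose (adjusted p = 0.386). MAN2A2, a mannosidase, rose in both media (0.57 ± 0.06 without glutamine and 0.70 ± 0.05 without glucose), and MGAT2, which adds the second GlcNAc branch, fell in both (-0.64 ± 0.08 and -0.61 ± 0.06). MGAT4B, which adds a further branch, was higher without glutamine than without glucose (0.61 ± 0.07, adjusted p = 0.000329).

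Levels between libraries depend on how they are scaled, and the glutamine-deprived library had the highest scaling factor, 1.08, against 1.01 and 0.979 for glucose deprivation and 0.960 and 0.971 for control. The total of a library was taken over protein-coding genes outside the mitochondrial genome. Dividing by it in place of the trimmed mean moved the median of all genes by 0.27 in glutamine deprivation, 0.14 in glucose deprivation and 0.13 in the direct comparison (log2). Of all calls, the share that was higher was then 83.9% in glutamine deprivation, 71.2% in glucose deprivation and 72.0% in the direct comparison, in place of 48.3%, 48.4% and 50.4%. The split of the 43 genes became 14 higher and 12 lower, 23 higher and 11 lower, and 8 higher and 16 lower in the same order. Under that scaling the falls without glutamine of GFPT1, GNPNAT1, PGM3, MPI, GMPPA, GMPPB, UGP2, SRD5A3, ALG2, STT3A, STT3B, RPN1, RPN2 and DDOST were no longer called, and GFPT2, OGA, NAGK, DPM2, ALG11, ALG3, ALG9, ALG12, MOGS and UGGT1 were called higher. In glucose deprivation the falls of GFPT2, UGP2, SRD5A3, ALG1, ALG2 and ALG8 were lost, and GFPT1, PGM3, NAGK, PMM1, GMPPA, GMPPB, ALG5, ALG11 and MAGT1 were called higher. In the direct comparison PMM2, UGP2, DPM1, ALG1, ALG3, ALG8, ALG9 and UGGT1 lost their calls, and GNPNAT1, DPM3 and GANAB were called higher. Relative to the median of all genes under that scaling, the members' median was -0.32, -0.0027 and -0.28, and that of the 8 oligosaccharyltransferase subunits was -0.40, 0.16 and -0.49. Under the trimmed mean the members' relative median was -0.37, -0.03 and -0.29. It shrank to -0.20, 0.0003 and -0.20 with the trend over GC content and length removed, where that of the subunits was -0.39, 0.21 and -0.49. Counts of the other lists are given under the trimmed mean only.

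**Figure D5:**
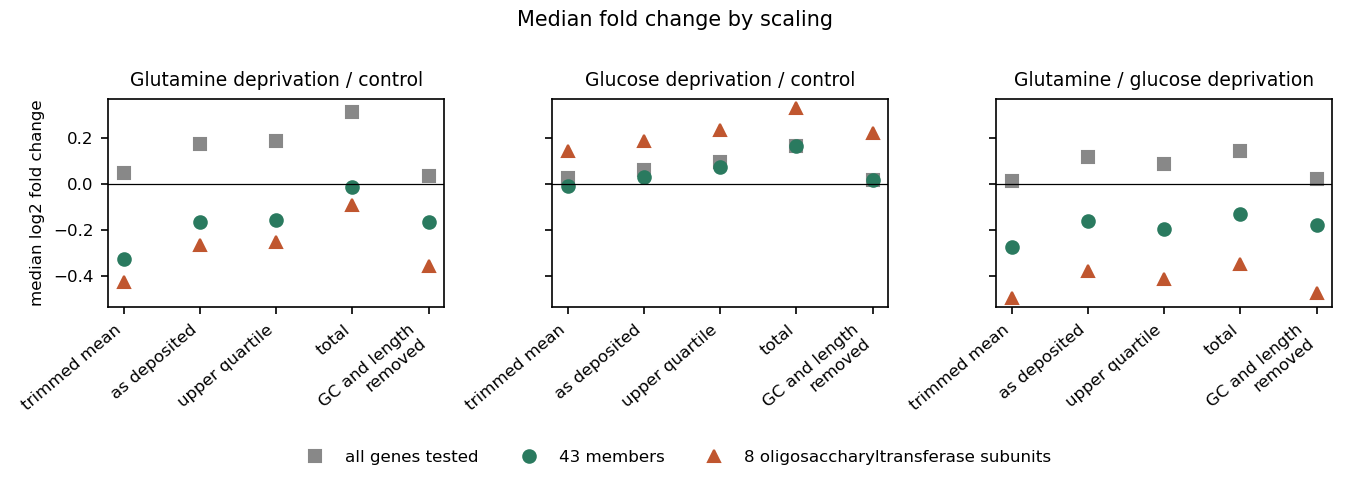
Median log2 fold change (vertical axis) of all genes tested (squares), of the 43 genes (circles) and of the 8 oligosaccharyltransferase subunits (triangles) under 5 ways of scaling (horizontal axis), in the 3 comparisons. All 3 medians move up together under scaling to the total, and the subunits stay below all genes in the glutamine panel and in the direct comparison under each scaling shown.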

How the data were processed

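Per the labels' protocols, libraries from rRNA-depleted RNA were read as pairs of 150 bases. The submitters' processing notes name HISAT2 2.0.5, StringTie and hg38; annotation and strand setting are not given in the sources used here. No header states a unit. The authors' deposited values were treated as FPKM: low values of 4000 to 4402 single-exon genes per library fell on whole reads in 95.1% to 95.8% of cases, within 0.05 reads, and this gave the depths. Of the glutamine values, 1 column carries a glucose header; it could not be mapped and was not used, which left 5 of the 6 labelled libraries.

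FPKM were divided by a scaling factor per library, the trimmed mean of its log ratios to the average library (unweighted, 30% of ratios and 5% of abundances trimmed at each end). The 16598 genes that reached 1 FPKM in 1 library or more were tested as log2(FPKM + 1), a pseudocount of 1, with limma 3.58.1 in R 4.3.3. The fit had 1 coefficient per group and 2 residual degrees of freedom, with variances moderated over a trend on inferred reads, not robust. P-values are two-sided and Benjamini-Hochberg adjusted over all genes tested, with a threshold of 0.05. The script was tested on simulated data. Exon lengths, positions and overlaps are from GENCODE release 29 (hg38), and promoters from RefSeq.

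The 43 genes, their roles and the other lists were chosen with earlier results of these data known. Values in every library are given for GFPT1, GFPT2, UAP1, OGT, OGA, DPAGT1, STT3A and STT3B, and in each comparison for up to 8 called members with the largest absolute log2 fold change and a mean log2 level of at least 3; OSTC was added after its values were seen. Of each other list, up to 3 called genes with the largest change per comparison could be named. Alternatives were a pseudocount of 0.1, no filter on low values, 3 other scalings, a trend over the mean level, the robust option, a replicate block, leaving out each library and, chosen after seeing the data, removal of a trend over GC content and length.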

Additional observations from a re-analysis of the deposited data

How the results depend on the processing

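Calls that held under every alternative run numbered 13 of 30 in glutamine deprivation (UAP1, OGT, PMM2, DOLK, DPM1, DPM3, ALG5, ALG1, ALG6, ALG8, DAD1, OST4 and MAGT1), 14 of 31 in glucose deprivation (GNPNAT1, UAP1, OGT, OGA, PMM2, DOLK, DPM1, DPM2, DPM3, ALG9, ALG10, STT3A, DAD1 and UGGT1) and 15 of 29 in the direct comparison (GFPT1, PGM3, OGA, MPI, GMPPA, DPM2, ALG5, ALG6, ALG10, STT3A, STT3B, RPN1, RPN2, DDOST and MAGT1). The sign held for 26 of 30, 30 of 31 and 29 of 29. Scaling to the total gave 14 members higher and 12 lower in glutamine deprivation, 23 and 11 in glucose deprivation, and 8 and 16 in the direct comparison; it moves every gene of a library alike. Under it the log2 fold change in glutamine deprivation turned to 0.085 for GMPPB, 0.24 for ALG3, 0.00032 for STT3A, 0.035 for STT3B, 0.12 for RPN2, 0.28 for UGGT1, 0.037 for DOLPP1, 0.10 for NUS1, 0.14 for PGM1 and 0.015 for SLC35A1. In glucose deprivation it turned to 0.16 for GFPT1, 0.16 for PGM3, 0.027 for SRD5A3, 0.15 for MAGT1 and 0.011 for MPDU1. With the GC and length trend removed, NUS1 was at 0.035 and SLC35A1 at 0.035 in glutamine deprivation, and the cause was not tested. Values as deposited gave 9 members higher without glutamine against control and 8 higher without glutamine than without glucose, and upper-quartile scaling 10 higher without glutamine against control. With no filter on low values 34222 genes were tested, and 7 members were higher and 9 lower in glucose deprivation, and 2 higher and 15 lower in the direct comparison. Leaving out 1 library gave 1 to 4 members higher and 23 to 26 lower in glutamine deprivation, 7 to 14 higher and 11 to 18 lower in glucose deprivation, and 4 higher and 18 to 23 lower in the direct comparison; the lowest counts came without control replicate 1 or 2, which leaves 1 residual degree of freedom. Without control replicate 1 glutamine deprivation had 1 member higher and without control replicate 2 it had 2. Leaving out either glucose-deprived library also left 1 residual degree of freedom, so this does not set the controls apart. Replicate numbers were not known to pair libraries: the deviations of same-numbered glucose-deprived and control libraries correlated at -0.02 over 16598 genes. With the replicate block 4 members were higher and 25 lower in glutamine deprivation, 11 and 15 in glucose deprivation, and 4 and 22 in the direct comparison. Of 2733 values of single genes under an alternative, 2377 kept their direction and side of the threshold, 295 lost a call, 44 gained one and 17 changed sign; signs were compared only where a call was made. Reads on a gene scale with its FPKM times its exon length, so depth limits short genes as well as those of few FPKM. ALG14 and NAGK, of few FPKM, have exons of 9633 and 8894 bases, whereas those of DPM3 span 622 bases.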
